A study of Mus musculus with 27 samples.

Results

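Interferon-stimulated genes are the genes that cells switch on when interferon reaches its receptor. A list of 40 such mouse genes was followed across 27 RNA-seq libraries, and 38 of the 40 were in the deposited table of 25192 genes. Mx1 and Mx2 were not analysed here. The libraries came from 3 kinds of mouse cells. These were embryonic fibroblasts, macrophages grown from bone marrow, and cells whose label reads aortic endothelial, called aortic-labelled cells below. Each was left unstimulated (0 h) or given imidazole propionate (ImP), a histidine metabolite made by gut bacteria, at 10 µg/mL for 1 h or 2 h. This gave 9 groups of 3 libraries. The labels state no genotype, strain or animal age, no vehicle control at 1 h or 2 h, and no animal or culture for any library, so p-values measure only the spread between these libraries, which may be technical. The 1 h and 2 h groups of a cell type were compared with the same unstimulated libraries.

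Type I and type III interferons bind receptors whose kinases act on transcription factors, STAT2 among them. The complex ISGF3, which holds STAT2 and IRF9, then binds a short promoter element, the interferon-stimulated response element (ISRE). The genes that follow include antiviral effectors, sensors of foreign nucleic acid, factors that amplify the response, and factors that end it. Macrophages are known for a steady, low interferon tone that keeps many of these genes partly on, and fibroblasts for making interferon beta and answering it when nucleic acid is sensed.

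Promoters are shown first, since ISGF3 acts on these genes through the response element. RefSeq windows on GRCm38.p6, from 250 bases before to 50 bases after the transcription start, were matched by symbol for 29 of the 38 members. The ISRE core was searched on both strands as a pair of GAAA words with any 2 bases between them, overlapping matches being counted separately, and 14 of the 29 members (48.3%) held at least 1 match, against 3.99% of the 27025 genes with a window. The gamma-activated element, searched as TTCNNNGAA, was in 7 of the 29 members (24.1%) and in 9.55% of all genes. The 2 motifs can overlap, and a match describes letters, not a site in use. The 6 stretches below are the 160 bases before the start of 2 IFIT genes, of Isg15 and Rsad2, and of 2 members with no match, Xaf1 and Ifi35. They were chosen to span the members' distances in the fibroblast library described further on. Capitals mark ISRE core matches. The stretches are Ifit3 at chr19:34583369-34583528 on the plus strand, Ifit1 at chr19:34640729-34640888 on the plus strand, Isg15 at chr4:156200819-156200978 on the minus strand, Rsad2 at chr12:26456453-26456612 on the minus strand, Xaf1 at chr11:72301469-72301628 on the plus strand and Ifi35 at chr11:101448252-101448411 on the plus strand, each printed 5′ to 3′ along its gene.
Ifit3: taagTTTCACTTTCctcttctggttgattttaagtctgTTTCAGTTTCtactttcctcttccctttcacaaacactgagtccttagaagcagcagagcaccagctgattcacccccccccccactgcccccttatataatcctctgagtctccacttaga
Ifit1: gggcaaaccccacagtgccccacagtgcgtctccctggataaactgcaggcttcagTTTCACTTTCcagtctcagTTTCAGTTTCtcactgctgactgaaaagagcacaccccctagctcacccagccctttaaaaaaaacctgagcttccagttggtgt
Isg15: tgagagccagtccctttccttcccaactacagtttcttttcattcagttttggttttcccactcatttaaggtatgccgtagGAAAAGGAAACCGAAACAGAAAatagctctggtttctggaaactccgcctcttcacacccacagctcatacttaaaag
Rsad2: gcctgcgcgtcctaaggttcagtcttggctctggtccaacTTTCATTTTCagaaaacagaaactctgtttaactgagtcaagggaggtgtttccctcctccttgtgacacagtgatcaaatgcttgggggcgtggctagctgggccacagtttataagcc
Xaf1: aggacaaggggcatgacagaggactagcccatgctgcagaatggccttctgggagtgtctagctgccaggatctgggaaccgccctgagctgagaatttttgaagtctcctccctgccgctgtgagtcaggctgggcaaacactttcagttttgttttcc
Ifi35: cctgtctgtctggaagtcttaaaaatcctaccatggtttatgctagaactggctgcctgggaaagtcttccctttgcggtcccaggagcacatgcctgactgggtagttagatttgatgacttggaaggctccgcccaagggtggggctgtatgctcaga
In Ifit3 the first bases of the matches lay at -156 and -122 from the start, and in Ifit1 at -104 and -85. Isg15 held 3 overlapping matches, at -78, -72 and -66, and Rsad2 held 1, at -120.

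Library totals were 28754034 to 35583478 counts in macrophages, 30554596 to 36489015 in fibroblasts and 18955352 to 61029374 in aortic-labelled cells. A directional kit served for macrophages and fibroblasts, and a low-input kit, with cells in smaller wells, for the aortic-labelled cells, so kit and cell type cannot be told apart. Of 13 endothelial markers measured in the aortic-labelled cells, 1 reached 10 CPM (counts per 1000000 counts of the library, TMM-scaled) and 7 were under 1 CPM, with Cldn5 at 0, while 10 of 11 markers of fibroblasts and 5 of 8 of smooth muscle reached 10 CPM. The endothelial label was therefore not borne out by its markers, while 12 of 12 macrophage markers reached 10 CPM in macrophages and 6 of 11 fibroblast markers in fibroblasts. In macrophages the third 1 h and the third 2 h library were unlike the others of their groups: Irf1 was 136, 137 and 42.4 CPM in the 1 h libraries, as against 45.1, 48.5 and 149 CPM in the 2 h ones. For Irf1 each of these libraries lay with the other time's group. By library code the third 2 h library comes before the third 1 h one, where in every other replicate of any cell type the 1 h code comes first. Whether their labels were exchanged was not tested; the labels were kept, and macrophage values at 1 h and 2 h are by label. The first fibroblast library at 1 h stood apart for the members themselves. Results that rest on these libraries are given with and without them. Because they were singled out by their values, p-values without them are smaller than in a test set in advance.

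In unstimulated cells the members were most abundant in macrophages. Levels were compared between genes on a per-length scale, that is counts divided by exon length and scaled to the same sum in every library (a TPM-type value). On this scale the median member was at 50.4 in macrophages, 10.3 in fibroblasts and 4.14 in aortic-labelled cells, against 6.15, 5.38 and 3.78 for all genes with a count. The members' summed level was 4038, 1092 and 497. At least 10 units were reached by 35, 20 and 11 of the 38 members. The order macrophages, fibroblasts, aortic-labelled cells thus held for the median, the sum and the count. In bulk libraries fewer cells of a type and less RNA per cell cannot be told apart.

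The most abundant members differed between cell types. In macrophages they were Lgals3bp, a secreted glycoprotein, at 719 ± 65.2, Ifi27l2a, a small hydrophobic protein, at 636 ± 43.8, and Bst2 (tetherin), which holds budding virus at the cell surface, at 410 ± 79.3 (per-length level, SD, n = 3). In fibroblasts they were Bst2 at 222 ± 29.2, Isg15, a ubiquitin-like modifier that is joined to other proteins, at 152 ± 3.06, and Ifi204, a DNA-binding sensor, at 105 ± 5.65. In aortic-labelled cells they were Lgals3bp at 99.8 ± 2.86, Bst2 at 80.5 ± 13.8 and Ifi35 at 67.6 ± 6.96. Bst2 was among the highest 3 in all 3 cell types.

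**Figure D1:**
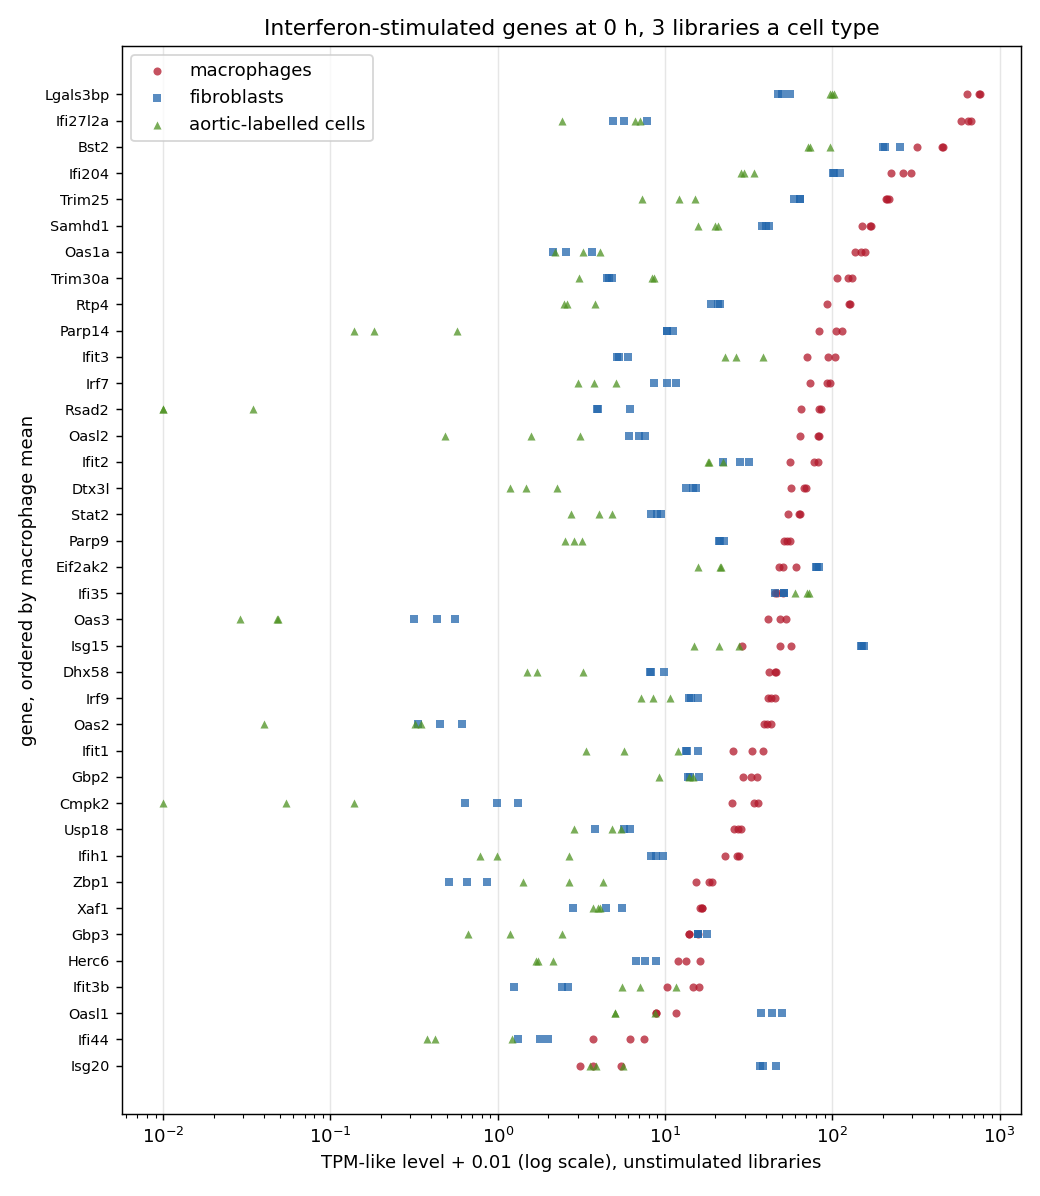
Per-length level of each of the 38 members in unstimulated cells, on a log axis with 0.01 added, with 1 point per library and 3 libraries per cell type. Most members are highest in macrophages, while Isg15, Isg20, Oasl1 and, on this scale, Eif2ak2 are higher in fibroblasts. By smaller amounts the means of Gbp3 (16.4 against 14.5) and Ifi35 (49.3 against 47.7) are also higher in fibroblasts than in macrophages. Ifi35 is highest in aortic-labelled cells (67.6). The aortic-labelled libraries hold the lowest values of Rsad2, Oas3 and Cmpk2.

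Between unstimulated macrophages and fibroblasts, 33 of the 38 members were higher in macrophages and 3 were lower at an adjusted p under 0.05 (edgeR's quasi-likelihood test over 18 libraries, Benjamini-Hochberg adjustment over 15389 genes). Of all genes tested, 80.7% passed, 39.1% higher and 41.6% lower, so passing was common, and the members' calls lay mostly on the macrophage side. The members' median log2 difference was 2.67, against -0.05 for all genes. Scaling to library totals alone moved the median of all genes to -0.47 and the members' median to 2.26, with 32 higher and 4 lower. Eif2ak2 then passed as lower (-0.45), Ifi35 no longer passed, and Gbp3 changed sign without passing.

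The oligoadenylate synthetases, which make the messenger that activates RNase L, were split. Oas3 (log2 difference 7.37, SE 0.451), Oas2 (7.04, SE 0.451), Oas1a (6.31, SE 0.385) and Oasl2 (4.04, SE 0.458) were higher in macrophages, and Oasl1, a catalytically inactive relative, was lower (-1.58, SE 0.2). In per-length levels Oas2 was 40.8 ± 2.03 in macrophages and 0.455 ± 0.14 in fibroblasts, while Oasl1 was 9.79 ± 1.67 and 43.9 ± 6.33 (SD, n = 3). In fibroblasts the family was therefore low except for Oasl1, and to a smaller degree Oasl2 at 6.9 ± 0.788.

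All 3 transcription factors of the list were higher in macrophages: Irf7, which amplifies interferon production (log2 difference 3.69), Stat2 (3.35) and Irf9 (2.14), the DNA-binding part of ISGF3. Per-length levels of Irf7 were 87.7 ± 12 in macrophages, 10.2 ± 1.57 in fibroblasts and 3.94 ± 1.02 in aortic-labelled cells (SD, n = 3). Among the feedback and ubiquitin-like genes, Trim25 (2.35), Usp18, the protease that removes ISG15 and blocks the receptor (2.96), Dtx3l (2.74), Parp9 (1.89), Parp14 (3.85) and Herc6 (1.43) were higher, and Isg15 was lower (-1.19, SE 0.184, adjusted p = 7.94e-06 by edgeR with Benjamini-Hochberg adjustment). Isg15 thus lay on the opposite side from the other genes of this group. Irf7, Dtx3l and Parp9 overlap genes on the opposite strand, as do Dhx58 and Rtp4, and the strand setting of the counting is not given in the sources used here.

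Of the sensors, Zbp1 (log2 difference 5.30), Dhx58 (2.93), Ifih1 (2.12), which encodes the RNA sensor MDA5, and Ifi204 (1.89) were higher in macrophages. Eif2ak2, the kinase PKR that halts translation, did not pass (-0.04). Its per-length level was 53.1 ± 6.86 in macrophages and 81.3 ± 1.71 in fibroblasts (SD, n = 3). The 4 IFIT genes, whose proteins bind foreign RNA, were all higher, from 1.78 for Ifit1 to 4.61 for Ifit3. Ifit3 and Ifit3b are near-identical, so how reads were split between them is uncertain. Samhd1, which depletes deoxynucleotides, had the smallest adjusted p of the members (2.61, SE 0.0724, adjusted p = 1.57e-17, edgeR with Benjamini-Hochberg adjustment). The nucleotide-acting genes Rsad2 (viperin, 4.63) and Cmpk2 (5.58) were higher too, whereas Isg20, an exonuclease, was lower (-2.74). Among the rest, Ifi27l2a had the largest difference after Oas3 (7.27, SE 0.264), and Gbp3, a guanylate-binding GTPase, did not pass (0.40). Trim30a (5.28) and Lgals3bp (4.39) were also higher.

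The macrophage excess was also seen over all 9 libraries of each cell type, treated ones included. On the per-length scale every macrophage library was above every fibroblast library for 26 members and below for 3, with 9 overlapping. The shares over all genes were 24.4% above and 48.1% below. Without the first 1 h fibroblast library, 31 members were above (25.1% of all genes).

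Between unstimulated aortic-labelled cells and fibroblasts, 6 of 38 members were higher in the aortic-labelled cells and 20 were lower (edgeR with Benjamini-Hochberg adjustment over 16334 genes), where 72.8% of all genes passed, 38.1% higher and 34.8% lower. The median log2 difference was -0.79 for the members and 0.11 for all genes. Without the third unstimulated aortic-labelled library the members' median was -1.18. With library totals alone the split was 5 higher and 21 lower. The differences that follow are on the log2 scale. Higher were Ifit3 (3.07), Zbp1 (2.73), Ifit3b (2.62), Lgals3bp (1.60), Trim30a (1.17) and Ifi35 (1.09), of which Trim30a no longer passed with library totals and Ifi35 not after removal of the trend with gene length (0.21, adjusted p = 0.21). Lower were, among others, Parp14 (-4.47), Isg20 (-2.57), Dtx3l (-2.50), Parp9 (-2.28), Isg15 (-2.19), Oasl1 (-2.17), Trim25 (-1.84), Herc6 (-1.42) and Ifi204 (-1.15). Rsad2 was lower too (adjusted p = 8.53e-06, edgeR with Benjamini-Hochberg adjustment), at 2, 0 and 0 counts against 164, 249 and 144 counts in fibroblasts, and its fitted difference is not given because it rests on 2 counts. The ADP-ribosylation genes Parp14, Parp9 and Dtx3l were on the same side, at per-length levels of 0.285 ± 0.236, 2.86 ± 0.334 and 1.63 ± 0.553 in aortic-labelled cells against 10.5 ± 0.521, 21.6 ± 0.796 and 14.5 ± 1.0 in fibroblasts (SD, n = 3). Library kit and cell type cannot be told apart in these values.

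In macrophages no member passed the test for a change with ImP. At 1 h, 0 of 38 passed (edgeR, Benjamini-Hochberg adjustment over 13251 genes), where 0.0226% of all genes did, and 2 members were under an unadjusted p of 0.05, where 5.23% of all genes were. At 2 h the members were again 0 of 38 (0.0302% of all genes), and 0 at the unadjusted 0.05 (6.15% of all genes). Between 2 h and 1 h they were 0 (0% of all genes) and 0 (1.65%). DESeq2 and limma-voom also called 0 members in each. The median log2 change was -0.06 at 1 h, -0.07 at 2 h and 0.02 between them, against 0.00 for all genes.

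The transcription factors Irf7 and Stat2 overlapped between times. Irf7 was 84.7, 115 and 107 CPM at 0 h, 96.9, 92.1 and 109 CPM at 1 h, then 109, 104 and 97.9 CPM at 2 h. Stat2 was 97.3, 119 and 116 CPM, then 90.3, 94.9 and 111 CPM, then 110, 101 and 103 CPM. Among effectors, Ifit1 was 20.6, 32.2 and 26.9 CPM at 0 h, 24.3, 22.9 and 24.8 CPM at 1 h, then 22.8, 19.6 and 23.2 CPM at 2 h. Rsad2 was 85.2, 117 and 110 CPM, then 104, 81.7 and 100 CPM, then 97, 89.9 and 104 CPM. In each of these 4 genes the unstimulated group alone spanned most of the range, with its first library low. Usp18 was 23.2, 25.1 and 22.1 CPM, then 20.2, 19.8 and 25 CPM, then 25.3, 18.5 and 20.4 CPM, and overlapped between times. The first unstimulated library was the lowest of the 9 macrophage libraries for 14 of 38 members (14% of all genes), and the second unstimulated library was the highest for 16 (15.8%).

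Ifi27l2a came closest to a change. It was 82.7, 98.8 and 90.9 CPM at 0 h, 72.6, 65 and 82.7 CPM at 1 h, then 84.8, 80 and 73.8 CPM at 2 h. Its log2 change at 1 h was -0.31 (SE 0.0918, adjusted p = 0.922, edgeR with Benjamini-Hochberg adjustment). On unrounded values it was one of 3 members whose 1 h libraries all lay below the unstimulated ones, with Irf9 (-0.20) and Xaf1, where 5.61% of all genes did so. With those 2 treated libraries that stand apart left out, Ifi27l2a was the 1 member that passed at 1 h, as lower (-0.40, SE 0.0848, adjusted p = 0.0448), where 0.928% of all genes passed and 0.104% passed as lower. The members' median was then -0.13. At 2 h and between 2 h and 1 h, 0 members passed without those libraries (0.119% and 0.661% of all genes). Isg15 had a positive estimate at 1 h (0.36, SE 0.181, adjusted p = 0.932), from 11.2, 6.87 and 13.1 CPM at 0 h to 12.9, 14 and 13.1 CPM at 1 h, with 13.5, 12.1 and 12.7 CPM at 2 h. Parp9 stood at -0.13 at 1 h. The members with the smallest p at 2 h against 0 h were Ifi27l2a (-0.19), Ifit1 (-0.28), Xaf1 (-0.17) and Ifit3b (-0.33), and between 2 h and 1 h Irf9 (0.12), Ifit3b (-0.28), Ifi27l2a (0.12) and Lgals3bp (0.09), none of which passed.

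**Figure D2:**
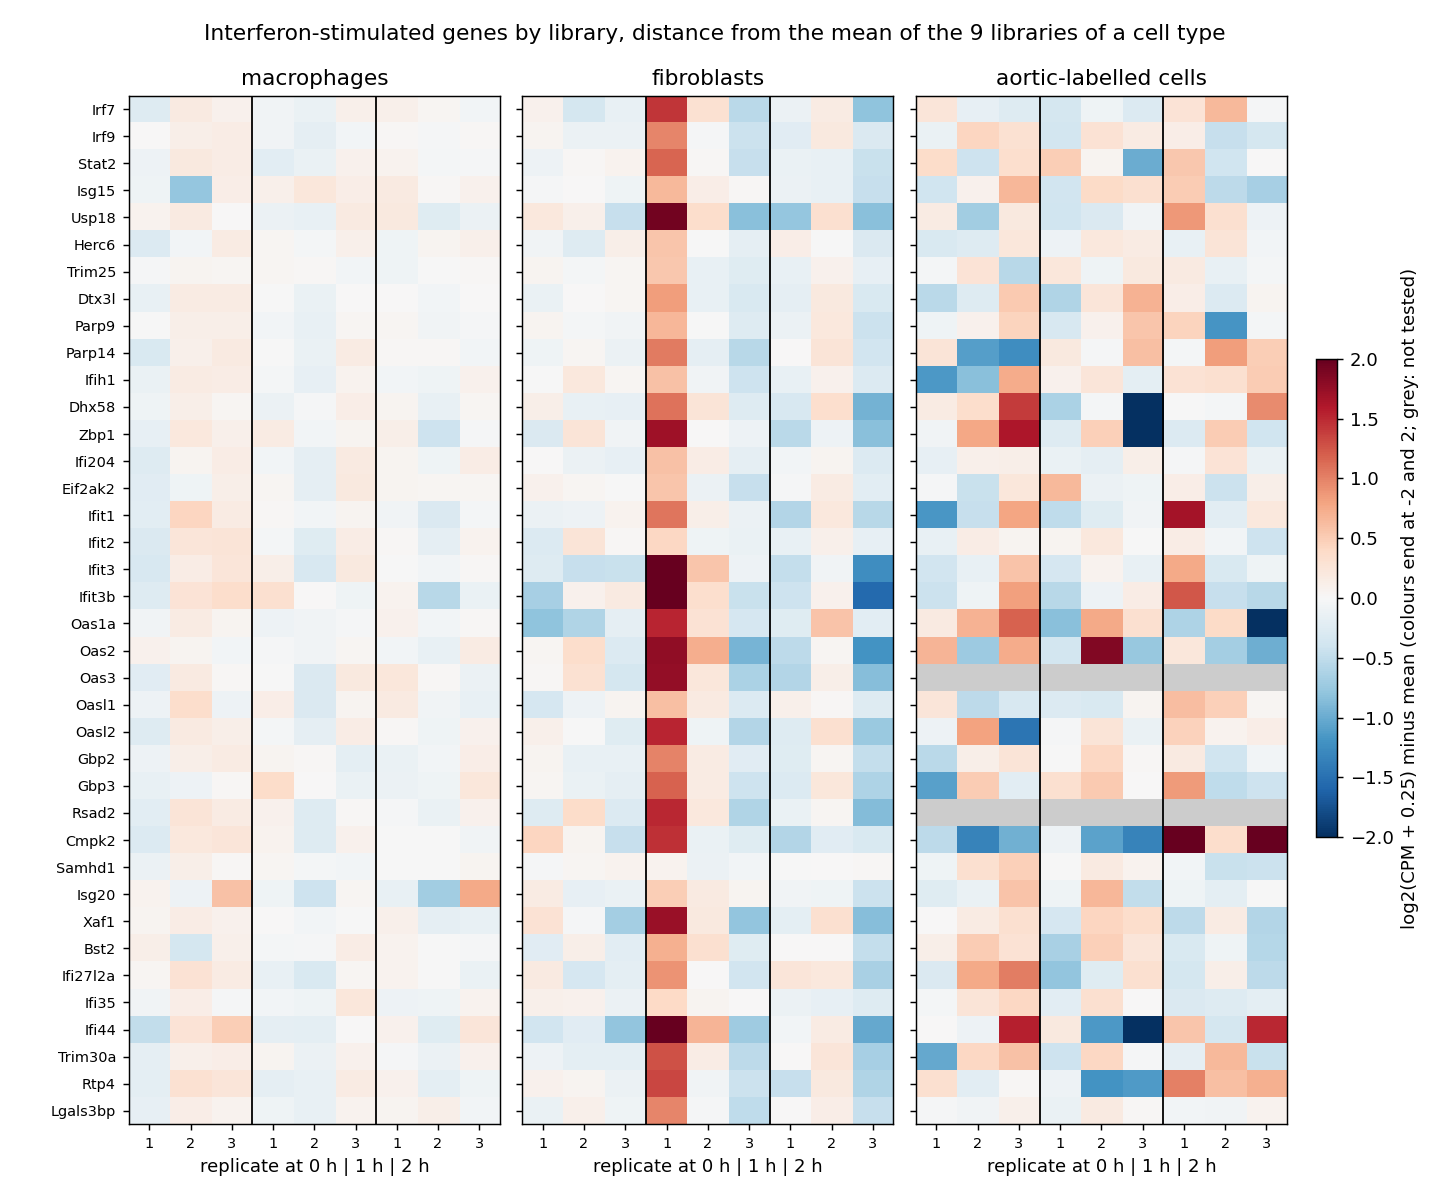
Heat map of the 38 members (lines of the map) in the 27 libraries (columns), as log2(CPM + 0.25) minus the mean of the 9 libraries of that cell type, colours ending at -2 and 2, with grey where a member was not tested. The first fibroblast library at 1 h is the highest of its 9 for all 38 members, the macrophage columns differ little, and the 2 h aortic-labelled libraries are high for Cmpk2.

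In fibroblasts no member passed either, and the upward lean of the estimates at 1 h rested on a single library. At 1 h, 0 of 38 passed (0% of all 14066 genes, edgeR with Benjamini-Hochberg adjustment) and 4 were under an unadjusted p of 0.05 (5.87% of all genes). The median log2 change was 0.48, and 37 of 38 estimates were positive. Without the first 1 h library the median was -0.07, with 16 of 38 positive and a range of -0.32 to 0.70. Again 4 members were under the unadjusted 0.05 (9.52% of all genes), 1 with a positive and 3 with a negative estimate. DESeq2 called 0 members at 1 h with all libraries and had 5 under the unadjusted 0.05.

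Ifit3 shows the pattern. It was 2.85, 2.45 and 2.47 CPM at 0 h, 21, 5.22 and 3.21 CPM at 1 h, then 2.42, 3.3 and 1.33 CPM at 2 h. All 3 libraries at 1 h were above all unstimulated ones, which held for 2 members, Ifit3 and Isg15, and for 4.99% of all genes. The log2 change was 1.92 (SE 0.691, adjusted p = 0.846, edgeR with Benjamini-Hochberg adjustment), and 0.70 (SE 0.326, adjusted p = 0.522) without the first 1 h library. Oas1a was 1.1, 1.31 and 1.84 CPM at 0 h, then 6.54, 2.64 and 1.62 CPM at 1 h, with a log2 change of 1.35 (SE 0.47), or 0.59 (SE 0.37) without that library. Ifi44, a cytoplasmic protein of little-known function, was 2.96, 3.32 and 2.16 CPM at 0 h, 20.9, 6.46 and 2.29 CPM at 1 h, then 3.77, 4.44 and 1.81 CPM at 2 h. In all 3 genes the second 1 h library was also above the unstimulated ones, and the third was within or near them.

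For Irf7, Stat2, Ifit1 and Usp18 the first 1 h library was high and the second was close to the unstimulated ones. Irf7 was 12, 8.83 and 10.2 CPM at 0 h, 30.9, 14 and 7.7 CPM at 1 h, then 10.4, 12.8 and 6.39 CPM at 2 h. Stat2 was 13.3, 14.5 and 14.9 CPM, then 32.1, 14.5 and 10.3 CPM, then 12.9, 12.8 and 10.4 CPM. Ifit1 was 9.68, 9.76 and 11.1 CPM, then 22.5, 11.5 and 9.72 CPM, then 6.95, 12.2 and 7.11 CPM. Usp18 was 4.66, 4.31 and 2.82 CPM, then 15.9, 5.18 and 2.11 CPM, then 2.22, 5.03 and 2.11 CPM. The third library of the same 1 h group was the lowest of that group for all 4 genes, and for Irf7, Stat2 and Usp18 it was below every unstimulated value. Without the first 1 h library the log2 changes were 0.06 for Irf7, -0.20 for Stat2 and -0.11 for Usp18.

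**Figure D3:**
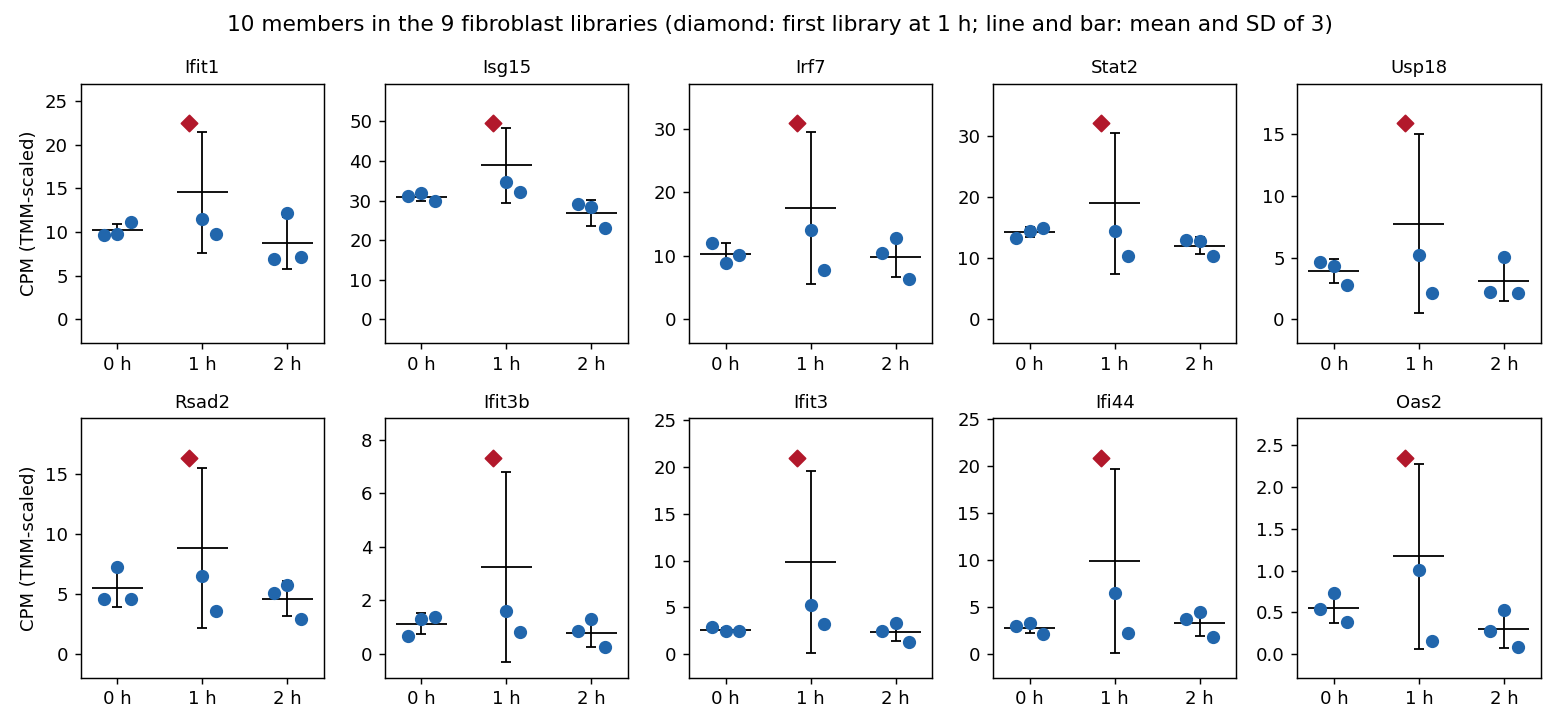
CPM of 10 members in the 9 fibroblast libraries by time, with 1 point per library, bars for mean and SD (n = 3), and a diamond for the first 1 h library. The diamond lies above every other point in all 10 genes, while the remaining 1 h points overlap the unstimulated and 2 h points in most of them.

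Isg15 differed less between libraries. It was 31.1, 31.9 and 29.9 CPM at 0 h, 49.6, 34.8 and 32.2 CPM at 1 h, then 29.1, 28.4 and 23 CPM at 2 h. The 1 h libraries lay above the unstimulated ones, as for 4.99% of all genes, with 32.2 against 31.9 CPM where they came closest. The 2 h libraries lay below the unstimulated ones, as for 4.49% of all genes. The log2 change was 0.33 (SE 0.146) at 1 h, or 0.11 (SE 0.108) without the first 1 h library, and -0.21 at 2 h. Between 2 h and 1 h it was -0.53 (SE 0.147, adjusted p = 0.2), or -0.31 (SE 0.107, adjusted p = 0.145) without that library, by edgeR with Benjamini-Hochberg adjustment. None of these passed.

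At 2 h against 0 h, 0 of 38 members passed in fibroblasts (0% of all genes) and 0 were under the unadjusted 0.05 (2.43% of all genes), with a median log2 change of -0.09. The median moved to 0.05 when the third 2 h library was left out, and to -0.24 when the second was. The smallest p were those of Ifi35 (-0.20), Oas1a (0.67), Isg15 (-0.21) and Isg20 (-0.16). Ifi35, Isg15 and Stat2 had all 2 h libraries below all unstimulated ones, as did 4.49% of all genes. Between 2 h and 1 h, 0 passed (0% of all genes), 11 were under the unadjusted 0.05 (12.1% of all genes) and the median was -0.62. Without the first 1 h library that median was -0.06. After Isg15 the smallest p were those of Isg20 (-0.45), Ifi35 (-0.34) and Zbp1 (-1.69), none of which passed. DESeq2 called 0 members in both, with 0 and 13 under the unadjusted 0.05.

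**Figure D4:**
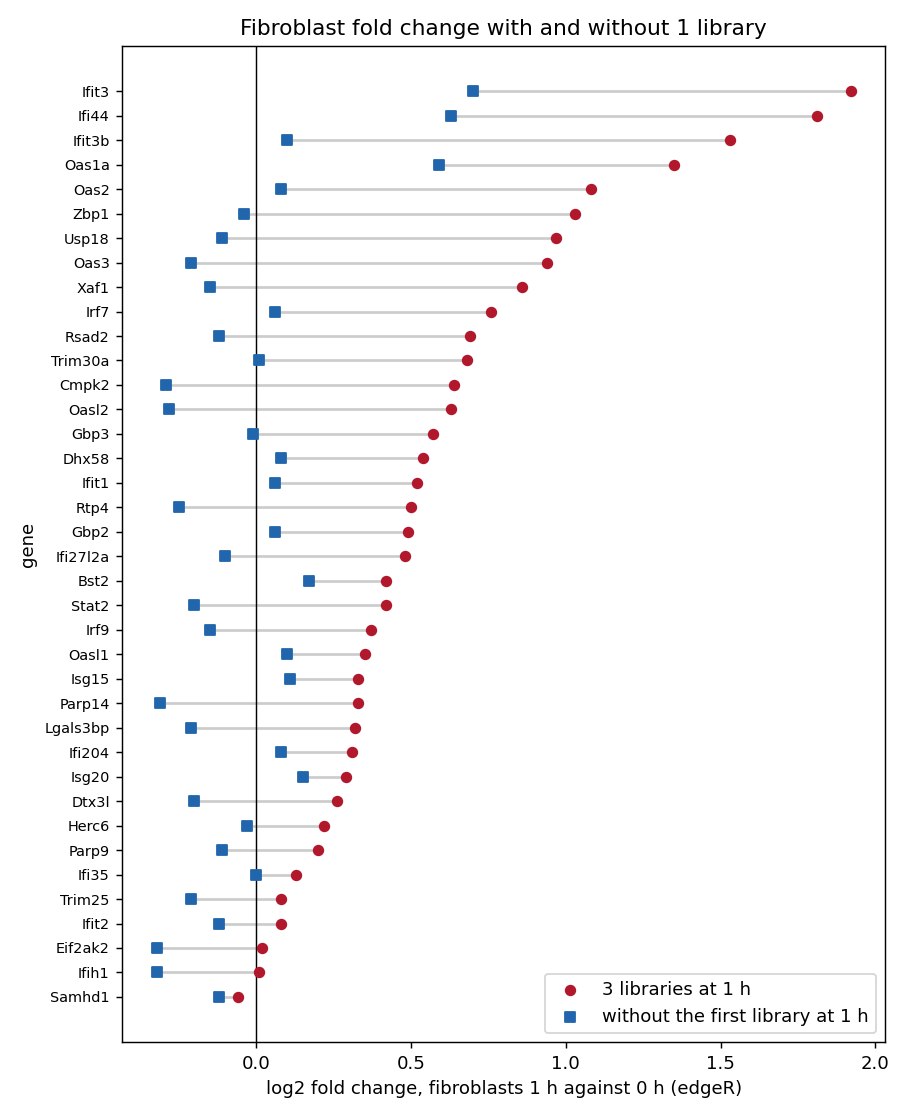
Log2 change at 1 h against 0 h in fibroblasts for each of the 38 members, from the fit with all 9 fibroblast libraries and from the fit without the first 1 h library. With all libraries 37 members lie above 0 and the median is 0.48; without that library 16 do and the median is -0.07.

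The first 1 h fibroblast library was the highest of the 9 for all 38 members, where it was the highest for 20.3% and the lowest for 20% of all genes tested. The library was singled out with its values known, so this is a description with no test. The count was also 38 with scaling by relative log expression, by library totals, and after removal of the trend with gene length. Its distance from the mean of the other 8 libraries had a median of 1.20 on the log2 scale (2.3-fold), and 24 members were more than 2-fold above that mean, as were 3.5% of all genes (493). Of the 50 genes farthest above their mean, 8 were members. The summed member level was 1544 CPM, against 740 to 976 CPM in the other 8 libraries.

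The members farthest out were of several roles, and distances were larger for members low at 0 h. The rank correlation (Spearman) of distance with the 0 h level was -0.849 over the 38 members. The median distance was 1.82 for members below the median 0 h level and 0.69 for the others. Why distance went with level was not tested. Ifit3b was 0.677, 1.31 and 1.4 CPM at 0 h, 7.33, 1.6 and 0.826 CPM at 1 h, then 0.844, 1.31 and 0.25 CPM at 2 h, a distance of 2.92 on the log2 scale (7.57-fold). Ifit3 (2.91), Ifi44 (2.71), Oas2 (2.46), Oas3 (2.26), Zbp1 (2.24) and Usp18 (2.24) followed. Xaf1, a pro-apoptotic partner of XIAP, was 19.7 CPM against 3.08 to 7.26 CPM (1.99). The synthetases Oas1a (1.82) and Oasl2 (1.73), and the adjacent genes Cmpk2 (1.84) and Rsad2 (1.74), came next. Rsad2 was 16.4 CPM against 2.97 to 7.26 CPM.

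Ifi27l2a, which was low at rest (0.766 ± 0.197 CPM at 0 h, SD, n = 3), was at 1.18. Nearest to the rest was Samhd1, which was 102 CPM, against 89.1 to 102 CPM, at a distance of 0.09. Ifi35 was at 0.44, Ifit2 at 0.47 (38.4 against 23.6 to 34.2 CPM), Isg20 at 0.55, Trim25 at 0.61, Eif2ak2 at 0.62 (161 against 79.3 to 123 CPM) and Isg15 at 0.73.

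The transcription factors lay between: Irf7 at 1.62, Stat2 at 1.32 and Irf9 at 1.1 (44 against 16.6 to 25.5 CPM). So did the sensor Dhx58 (1.25) and the GTPases Gbp3 (1.35) and Gbp2 (1.13). Set beside the promoters printed above, Ifit3 with 2 ISRE core matches was at 2.91, Ifit1 with 2 at 1.22, Isg15 with 3 at 0.73 and Rsad2 with 1 at 1.74, while Xaf1 with none was at 1.99 and Ifi35 with none at 0.44. Over the 29 members with a window, the median distance was 1.33 for the 14 with a match (0.62 to 2.92) and 0.95 for the 15 without (0.09 to 2.71). The ranges overlapped across most of their length. The 6 genes shown were chosen by these distances, so their order against the number of matches cannot speak to a link.

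Other interferon genes were also high in that library. Of 56 further interferon-induced genes that were tested and are not members, 48 were the highest of 9 there and 1 the lowest, with a median distance of 0.79. Cxcl10, a chemokine, was 437 CPM there and 127 to 275 CPM in the others. Upstream, 8 of 17 receptor, kinase and STAT genes were highest and 3 lowest, and 6 of 13 sensing genes were highest and 2 lowest. Interferon beta itself (Ifnb1), which was below the count filter, had 16 counts there and 0 to 6 in the others. The ligand gene Ifnz, which passed the filter, was not highest there, at 17 counts against 0 to 24 in the others. The share of genes at their highest was 38 of 38 for members and 48 of 56 for further induced genes; whether it differed from that of the upstream lists was not tested.

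Macrophage markers also moved in that library. Of 12 such markers, 2 reached 10 CPM in fibroblasts, 5 were under 1 CPM and none was at 0 in all 9 libraries. Their summed level was 40.6 to 57.3 CPM at 0 h, 48.4 to 81.7 CPM at 1 h and 35.5 to 62.6 CPM at 2 h. It was 81.7 CPM in the first 1 h library, which is 0.305% of the macrophage libraries' mean of 26782 CPM against 0.133% to 0.234%. Lyz2 was 29.5 CPM against 8.28 to 22.6 CPM. The part of these markers in the members' values was not tested. Depth (31196595 counts) and the mitochondrial share (1.6%, against 1.45% to 2.04%) were within the range of the other fibroblast libraries.

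At the other end, the third 2 h fibroblast library was the lowest of the 9 for 23 of 38 members (12.6% of all genes), and the third 1 h library for 9 (15%). Rsad2 was 4.63, 7.26 and 4.57 CPM at 0 h, 16.4, 6.52 and 3.61 CPM at 1 h, then 5.09, 5.76 and 2.97 CPM at 2 h. Oas2 was 0.536, 0.729 and 0.381 CPM, then 2.35, 1.01 and 0.153 CPM, then 0.281, 0.531 and 0.0833 CPM. In both genes the spread within the 1 h group was wider than any difference between the middle libraries of the groups.

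In aortic-labelled cells 36 members had counts enough to test, and Oas3 and Rsad2 did not. Members called were 0 of 36 at 1 h, 0 at 2 h and 0 between 2 h and 1 h (edgeR with Benjamini-Hochberg adjustment over 14779 genes), with 0% of all genes called in each. At an unadjusted p under 0.05 they were 1, 4 and 3 (4.96%, 9.21% and 1.98% of all genes), and the median log2 changes were -0.06, -0.01 and -0.06. The third unstimulated library was the highest of the 9 for 9 of 36 members (23.1% of all genes) and the lowest for 3 (24.3%). Without that library the median was 0.09 at 1 h and 0.11 at 2 h against 0 h. DESeq2, which tested all 38, called 1, Rsad2 at 2 h against 0 h (adjusted p = 0.0171, Benjamini-Hochberg), where it called 0.112% of all genes.

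Rsad2 and Cmpk2 are neighbours on chromosome 12, 12751 bases apart and on opposite strands, and encode enzymes that act in turn to make an antiviral nucleotide. Rsad2 had 2, 0 and 0 counts at 0 h, 8, 5 and 3 counts at 1 h, then 143, 2 and 79 counts at 2 h. Cmpk2 had 10, 0 and 2 counts, then 21, 1 and 0 counts, then 193, 20 and 65 counts. Both were high in the first and the third 2 h libraries, and in the second Rsad2 was near the unstimulated level. The log2 change of Cmpk2 at 2 h was 4.61 (SE 1.39, adjusted p = 0.539, edgeR with Benjamini-Hochberg adjustment), and DESeq2 gave an adjusted p of 0.0947. Of the 36 tested members, Cmpk2 and Rtp4, a receptor chaperone, had all 2 h libraries above all unstimulated ones (8.38% of all genes). Rsad2, which edgeR did not test, was at 3.32, 0.0558 and 2.99 CPM against 0.0383, 0 and 0 CPM. Its lowest 2 h library and its highest unstimulated one both held 2 counts, so their order rests on library scaling alone.

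Ifit1, Irf7, Isg15, Stat2 and Usp18 overlapped between 0 h and 2 h. Ifit1 was 3.2, 5.4 and 13.2 CPM at 0 h, 5.18, 6.33 and 7.13 CPM at 1 h, then 24.2, 6.42 and 8.75 CPM at 2 h, with 1 high library. Irf7 was 6.83, 5.11 and 4.77 CPM, then 4.44, 5.38 and 4.71 CPM, then 7.03, 9.16 and 5.64 CPM. Isg15 was 4.04, 5.73 and 8.69 CPM, then 4.07, 7.12 and 6.82 CPM, then 7.73, 3.66 and 3.29 CPM. Stat2 was 10.2, 5.83 and 9.99 CPM, then 11.1, 8.17 and 3.82 CPM, then 11.5, 5.86 and 7.91 CPM. Usp18 was 5.44, 2.87 and 5.57 CPM, then 3.57, 3.9 and 4.56 CPM, then 9, 6.03 and 4.47 CPM. Bst2 had its 2 h libraries (17.8, 20.7 and 14.7 CPM) below all unstimulated ones (23.9, 31.3 and 26.9 CPM), as had Ifi35 (8.48% of all genes), at log2 changes of -0.62 (SE 0.26) and -0.47 (SE 0.171), and Samhd1 was at -0.55 (SE 0.166), none of which passed (adjusted p = 0.539 each, edgeR with Benjamini-Hochberg adjustment). At 1 h the member with the smallest p was Dhx58 (-1.69, SE 0.736, adjusted p = 0.826), from 1.74, 2.01 and 4.42 CPM at 0 h to 0.902, 1.48 and 0.156 CPM. Rtp4 (-0.86), Zbp1 (-1.39) and Ifi44 (-1.79) followed. Between 2 h and 1 h the smallest p were those of Rtp4 (1.64), Cmpk2 (4.06), Samhd1 (-0.38) and Ifit1 (1.09), none of which passed.

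**Figure D5:**
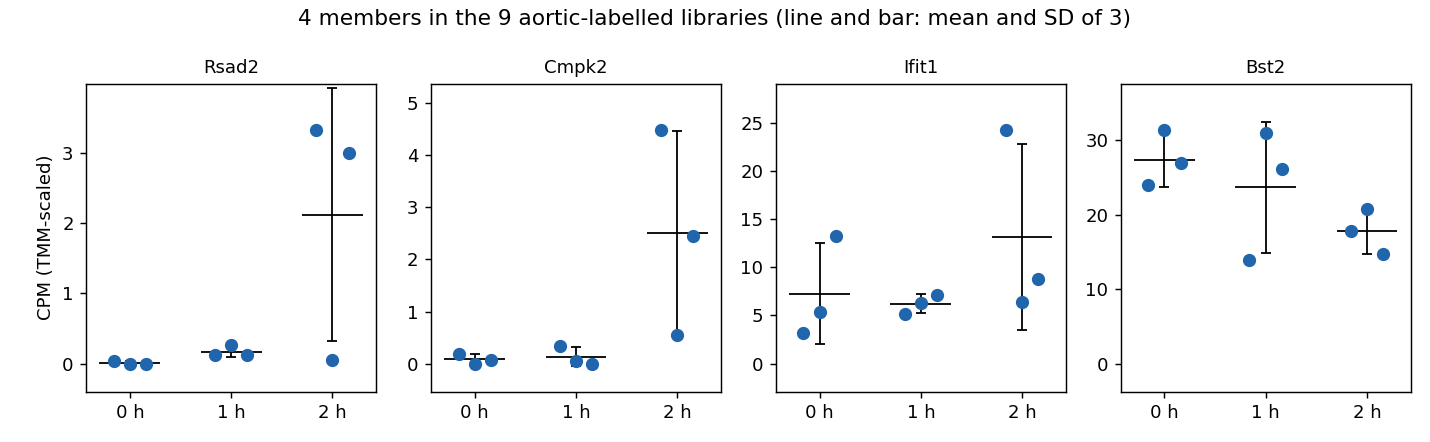
CPM of Rsad2, Cmpk2, Ifit1 and Bst2 in the 9 aortic-labelled libraries by time, with 1 point per library and bars for mean and SD (n = 3). Rsad2 and Cmpk2 are high in the first and the third 2 h libraries, Ifit1 in the first alone, and the 2 h points of Bst2 lie below its unstimulated points.

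Whether ImP acted differently on the members in macrophages and fibroblasts was tested as an interaction over 18 libraries. At 1 h, 0 of 38 passed (0% of all genes, edgeR with Benjamini-Hochberg adjustment), 3 were under the unadjusted 0.05 (7.83% of all genes), and the median log2 difference, macrophages minus fibroblasts, was -0.59. It was -0.00 without the first 1 h fibroblast library. Ifi44 (-2.09, SE 0.815), Ifit3 (-1.96, SE 0.737) and Oas1a (-1.47, SE 0.508) were the 3, and stood at -0.90, -0.73 and -0.71 without that library. Ifi27l2a followed (-0.78). At 2 h, 0 passed (0% of all genes) and the median was 0.05, or -0.11 without the third and 0.18 without the second 2 h fibroblast library. The smallest p were those of Isg15 (0.49), Oas1a (-0.73), Oas2 (0.82) and Ifi27l2a (-0.32). DESeq2 called 0 in both.

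The rest of the pathway was taken from lists of ligands, receptors with their kinases and STATs, nucleic acid sensing genes, and further induced genes. Of 21 ligand genes 7 were in the table, and 1, Ifnz, had counts enough to test in fibroblasts and aortic-labelled cells. With all libraries, no gene of these lists passed at 1 h, 2 h or between them in any cell type (edgeR). Among receptors, kinases and STATs, 2 of 18 macrophage genes and 3 of 17 fibroblast genes were under an unadjusted p of 0.05 at 1 h, and among further induced genes 3 of 68 and 1 of 56, where 5.23% of all macrophage genes and 5.87% of all fibroblast genes were. In macrophages at 1 h the smallest p of the receptor, kinase and STAT list was that of Stat3. Stat3 was 97.8, 104 and 108 CPM at 0 h, then 117, 113 and 116 CPM at 1 h. Socs3, the suppressor of cytokine signalling, had a log2 change at 1 h of 4.96 (SE 2.03, adjusted p = 0.922, edgeR with Benjamini-Hochberg adjustment). Irf1, a transcription factor, had one of 1.15 (SE 0.638, adjusted p = 0.954, edgeR with Benjamini-Hochberg adjustment). Without the 2 macrophage libraries that stand apart the changes were 5.53 for Socs3, 1.52 for Irf1 and 1.88 for Cxcl10. These genes are among those by which the libraries stood apart, so the values without them are a description, with no test. Socs3 was 1.11, 1.06 and 0.992 CPM at 0 h, 48.6, 49.5 and 1.24 CPM at 1 h, then 1.53, 2.14 and 51.5 CPM at 2 h. Among members, Ifit1 (24.8 and 23.2 CPM in the third 1 h and the third 2 h libraries) and Irf7 (109 and 97.9 CPM) lay within the range of the other macrophage libraries. Between the 1 h and 2 h libraries the GTPase genes leaned the way of Socs3 by a smaller amount. In the 1 h libraries Gbp3 was 19.9, 15.4 and 14 CPM, then 14.1, 14.5 and 18 CPM in the 2 h ones. Gbp2 was 24.9, 24.4 and 20.8 CPM, then 21.8, 23.1 and 26.3 CPM. Unlike Socs3, Gbp2 was as high without ImP. Its per-length levels at 0 h were 29.1, 32.5 and 35.3, the last being the highest of the 9 macrophage libraries. Those of Gbp3 at 0 h were 13.9, 13.9 and 15.7, where the highest of the 9 was 21. In fibroblasts without the first 1 h library, 1 of 17 receptor, kinase and STAT genes passed between 2 h and 1 h. This was Irf1, lower at 2 h (-0.44, SE 0.0943, adjusted p = 0.0269, edgeR with Benjamini-Hochberg adjustment). With all libraries its adjusted p by the same test was 0.142. That library was left out with its values known, so the value without it is a description. In unstimulated macrophages against fibroblasts, 14 of 18 receptor, kinase and STAT genes were higher and 3 lower, 13 of 15 sensing genes higher and 2 lower, and 60 of 68 further induced genes higher and 7 lower, with a median of 3.57 for the last, where 39.1% of all genes were higher and 41.6% lower.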

How the data were processed

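The authors deposited estimated counts (expected counts) per gene for all 27 libraries, all of them whole numbers, on mm10/GRCm38.p6. The submitters' processing notes name RSEM, STAR, cutadapt and FastQC, and DESeq2 in R 4.3.2; the strand setting of the counting is not given in the sources used here. No value column was left unused. Groups came from the labels, and replicates were numbered in accession order. Genes were filtered per fit with filterByExpr (minimum count 10), scaled by TMM and tested with edgeR 4.0.16 quasi-likelihood fits in R 4.3.3, 1 per cell type and 1 for each of 2 pairs of cell types, with Benjamini-Hochberg adjustment over all genes tested and a threshold of 0.05. The script was tested on simulated data. CPM uses TMM-scaled totals, and per-length levels use GENCODE M21 exon lengths. Alternatives were DESeq2 1.42.0, limma-voom (limma 3.58.1), other scalings and filters, removal of the trend with length, a block by runs of consecutive library codes, and leaving libraries out. In each ImP comparison and interaction the 4 members with the smallest p were named, and 12 between unstimulated cell types, and other members by role, after their values were seen. The members and lists were chosen with earlier results of these data known, and the motif search after values were seen. All 27 pairs of replicates differed by more than sampling noise (lowest chi-square per degree of freedom 5.89).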

Additional observations from a re-analysis of the deposited data

How the results depend on the processing

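The number of members called was within 1.5 times of the reported number under all alternatives but 2. Without the macrophage libraries that stand apart, 1 member (Ifi27l2a) was called in macrophages at 1 h, and with DESeq2 1 member (Rsad2) was called in aortic-labelled cells at 2 h. Leaving out each library in turn gave 0 to 0 members in every ImP comparison and interaction, 36 to 36 for unstimulated macrophages against fibroblasts, and 23 to 26 for aortic-labelled cells against fibroblasts. The next tally covers only the 4 members of smallest p in each ImP comparison and interaction, and the 12 between unstimulated cell types. Over the alternatives, 1075 of their values kept direction and side of the threshold. One call was lost (Ifi35, aortic-labelled cells against fibroblasts, trend with length removed, 0.21), 1 was gained (Ifi27l2a, -0.40) and 0 reversed. Outside the tally, library totals alone changed the calls of Ifi35 and Eif2ak2 in macrophages against fibroblasts. They also changed those of Trim30a and Irf7 in aortic-labelled cells against fibroblasts. Gbp3 in the former and Ifit2 in the latter changed sign without passing. With the replicate block by code runs, 0 members were called in each comparison within a cell type; libraries of the same run correlated at -0.213 to 0.186 in their deviations, so the numbers were not taken as pairs. Rsad2 and Oas3 were below the count filter within the aortic-labelled cells, where Rsad2 had 2 counts in all at 0 h, so its level there carries a wide counting error.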
